A study of Mus musculus with 6 samples.

Results

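Collagen genes, the genes that encode the chains of the collagen proteins, were followed through every cell class of the back of the mouse eye. The members were all genes whose symbol is Col, a number, the letter a and a number, as in Col1a1, and 44 of the 33696 genes in the count tables had such a symbol. They were chosen by name and not by any measured value. Single-cell RNA sequencing had been run on pooled posterior eye cups (sclera, choroid and retina), from which lens, cornea, iris and ciliary body had been removed. In the tropicamide group, 12 mice received 6 drops of tropicamide, an antagonist of muscarinic acetylcholine receptors, with 10 min between drops and 1 h between the last drop and dissection. In the saline group, 12 mice received saline drops at the same spacing, while the sources used here do not give their number of drops or waiting time. Right eyes were pooled by 4 for each library, which gave 3 pools per group, and a pool was taken as the replicate. The design text calls the groups ciliary muscle relaxation (tropicamide) and ciliary muscle contraction (saline), in a study of myopia. No strain, age or sex of the mice is given in those sources.

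Collagens are built from α chains that wind around each other into a rod-like helix, and most types are secreted and assembled outside the cell. Fibrillar collagens (types I, II, III, V and XI, for example) form the fibrils that carry load in the sclera, and a thinner sclera with less collagen is a known feature of myopic eyes. Type IV collagen forms the sheet of basement membranes around vessels, nerves and epithelia, and fibril-associated collagens bind to the surface of fibrils. Other families form beaded filaments, hexagonal networks or anchors in the cell membrane. Some chains assemble only with partners made by the same cell, so the ratio of 2 chains within a class was followed as well as their levels.

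The files held 66434 cell barcodes, of which 416 were below the filter, 5922 were removed as probable doublets and 60096 were kept. The tropicamide pools held 37373428, 49477707 and 39804355 UMIs (unique molecular identifiers, each marking a captured transcript), and the saline pools held 30761887, 31308887 and 40897798 UMIs. Of the barcode sequences, 522 were found in more than 1 library. Collagen genes took 1695725 UMIs of the kept cells. The cells were clustered without any collagen gene, and 26 classes with enough cells were compared. Rod-like cells made up 49409 of the kept cells, fibroblast-like cells 3793, retinal pigment epithelium-like cells 1898, endothelial-like cells 1107, Müller glia-like cells 527 and keratocyte-like cells 233. Fibroblast-like and endothelial-like cells were divided into subsets that are called here by 2 leading genes of each, such as Postn/Eln. The Crhbp/Penk and Fmod/Thbs4 clusters kept no cell type name. Among the top genes of the Crhbp/Penk cluster were genes of the melanocyte list, although it scored highest for Müller glia, and the top genes of the Fmod/Thbs4 cluster included more fibroblast than keratocyte markers. Keratocyte-like cells and 201 corneal or conjunctival epithelium-like cells were present although the labels state that the cornea was removed. Levels are given in CPM, counts per 1000000 UMIs of a class in a pool, and a pool with under 10 cells of a class gave no value for it. For pericyte-like cells, Schwann-like cells and the Crhbp/Penk cluster, 4 pools gave values, namely the 3 tropicamide pools and saline pool 3. Because UMIs are not set per length and capture efficiency may differ between genes, a ratio of 2 chains was compared between classes and was not read as the composition of a protein. A ratio used each pool with UMIs of both chains and at least 20 together, also pools with under 10 cells of the class. The pools behind a ratio can therefore differ from those behind a level.

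The collagen share of a class's UMIs spanned a wide range, and the stromal cells stood far above the retina. Collagen transcripts were 6.32% of all UMIs in Postn/Eln fibroblast-like cells (mean over pools), 4.66% in keratocyte-like cells and 2.86% in Pi16/Tnfaip6 fibroblast-like cells. Myoc/Chil1 and Ptn/Edn3 fibroblast-like cells, whose collagen share was much smaller, had 0.687% and 0.539%. The share was 0.302% in retinal pigment epithelium-like cells, 0.262% in Müller glia-like cells and 0.0506% in rod-like cells. Of the 44 genes, 34 had at least 200 UMIs in the class of their highest mean level, and the other 10 (Col27a1, Col4a3, Col6a4, Col6a5, Col7a1, Col20a1, Col22a1, Col25a1, Col26a1 and Col28a1) did not. The 34 chains had their highest mean in 15 different classes. Keratocyte-like cells were highest for 7 of them, Postn/Eln fibroblast-like cells for 5, the Crhbp/Penk cluster for 4 and retinal pigment epithelium-like cells and the Fmod/Thbs4 cluster for 3 each. For 18 of the 34 the pools of the highest class lay wholly above those of the next class, and for the other 16 they overlapped. Although 23 of the 34 had over 50% of their UMIs in fibroblast-like or keratocyte-like cells, these classes were the highest for 17. No test was run between classes.

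**Figure D1:**
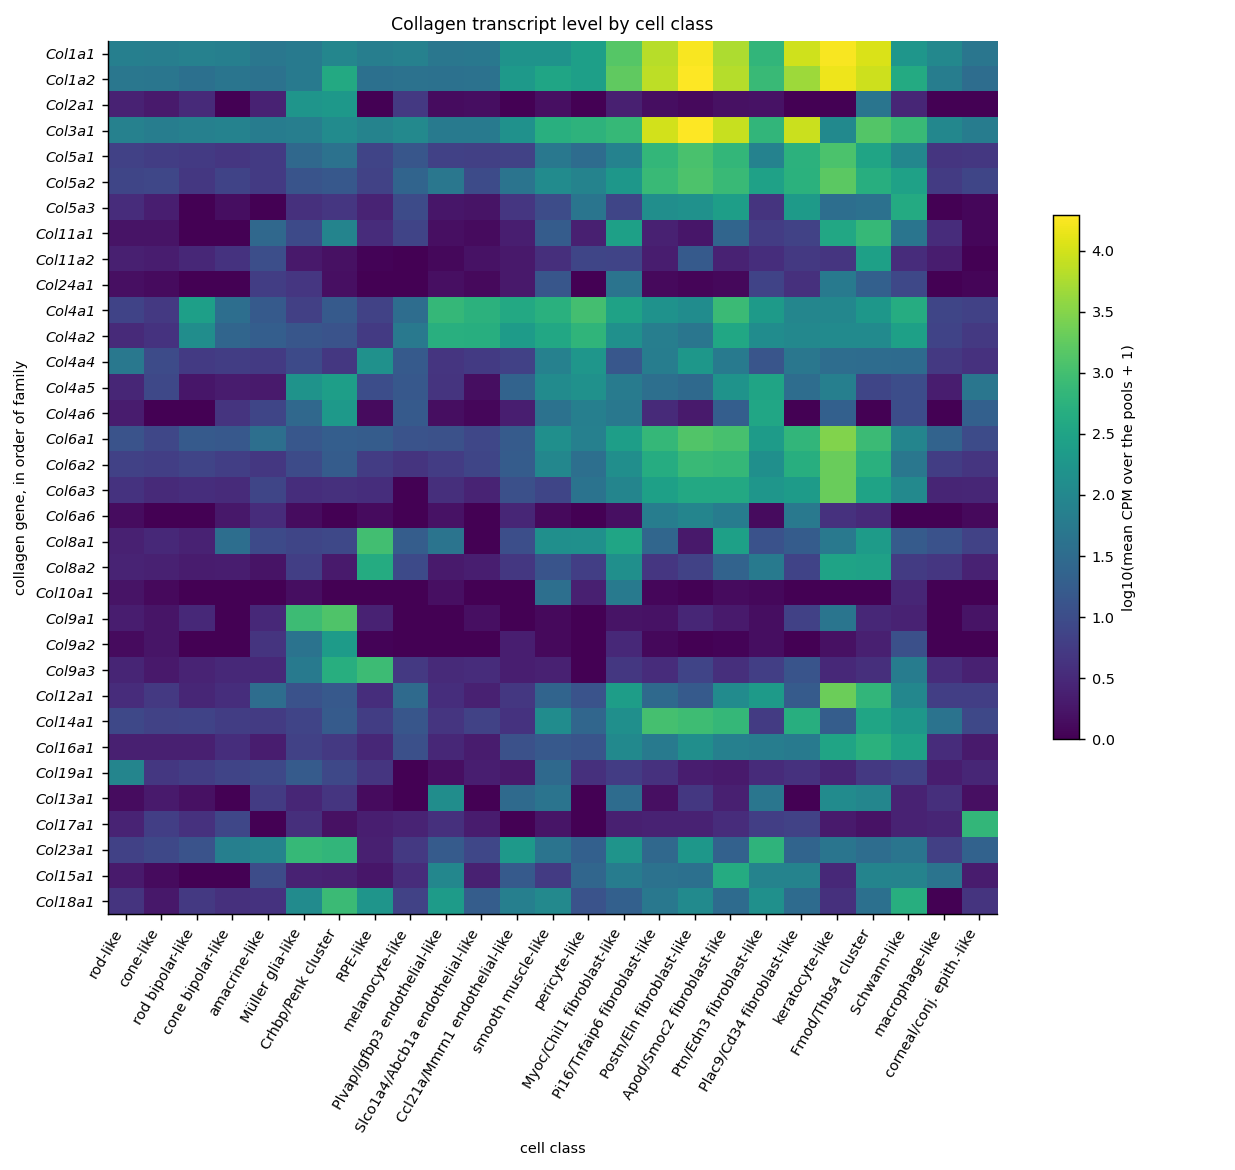
Mean level of the 34 collagen genes with at least 200 UMIs in their highest class (rows, in order of family) in the cell classes reported here (columns), as log10 of the mean CPM over pools plus 1; brighter is higher. Col1a1, Col1a2 and Col3a1 are brightest in the Postn/Eln column, at 17860, 19390 and 18970 CPM, and Col3a1 is dark in the keratocyte-like column, at 109 CPM.

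The chains of type I collagen, the main fibril of sclera and cornea, were highest in the Postn/Eln fibroblast-like and keratocyte-like cells. Col1a1 had 17860 ± 1694 CPM in Postn/Eln cells and 17770 ± 1983 CPM in keratocyte-like cells (SD, n = 6 pools each), and the pools of the 2 classes overlapped. Its lowest, median and highest pools were at 15410, 17600 and 20460 CPM in Postn/Eln cells. Col1a2 had 19390 ± 1335 CPM in Postn/Eln cells, with pools from 17050 to 20820 CPM and a median of 19410 CPM. In keratocyte-like cells Col1a2 had 14810 ± 2125 CPM, which overlapped with Postn/Eln cells. Pi16/Tnfaip6 and Apod/Smoc2 cells had 6671 ± 1050 and 5772 ± 794 CPM of Col1a1, while Myoc/Chil1 and Ptn/Edn3 cells had 1414 ± 422 and 651.9 ± 85.2 CPM.

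Col3a1, the chain of type III collagen, which often shares fibrils with type I, set the 2 classes apart. Postn/Eln cells had 18970 ± 1592 CPM, with a lowest, median and highest pool of 16690, 18990 and 20890 CPM. Keratocyte-like cells had 109.3 ± 49.2 CPM, with pools from 63.8 to 195 CPM, so that no pool of the 2 classes came near the other. The ratio of Col3a1 to Col1a1 was 1.07 in Postn/Eln cells (median over pools) and 1.49 in Pi16/Tnfaip6 cells, against 0.0057 in keratocyte-like cells, where it ran from 0.0031 to 0.0127. The Fmod/Thbs4 cluster lay between them, with a median of 0.139 and a range from 0.0638 to 0.259. Smooth muscle-like and Schwann-like cells had more Col3a1 than Col1a1 UMIs, with median ratios of 3.36 and 4.25.

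The ratio of Col1a1 to Col1a2 spanned a narrower range. It was 0.904 in fibroblast-like cells as a whole and 1.22 in keratocyte-like cells. It was 0.472 in smooth muscle-like cells and 0.41 in Schwann-like cells, against 1.43 in rod-like, 1.83 in retinal pigment epithelium-like and 2.08 in Plac9/Cd34 fibroblast-like cells. Plac9/Cd34 cells had a median of 814 UMIs per cell. Among other retinal classes with few type I UMIs, the ratio was 1.385 in cone-like, 1.625 in rod bipolar-like, 1.611 in cone bipolar-like and 1.08 in Müller glia-like cells. The part of free RNA in these ratios was not tested. The Crhbp/Penk cluster had a median of 0.186, and 770 Col1a2 UMIs stood against 147 Col1a1 UMIs there. In that cluster a single cell held 147 of 215 Col1a2 UMIs in tropicamide pool 1 and a single cell 129 of 211 in tropicamide pool 3.

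RefSeq promoter windows of GRCm38.p6, which span 250 bases before a gene's start to 50 bases from the start on, were found for 35 of the 44 genes in 38 windows, and Col1a1 had none. The files were made on GRCm39, so these windows were used only as sequence. Windows of Col1a2 and Col3a1 are shown because these chains were both high in Postn/Eln cells and far apart in keratocyte-like cells. Capitals mark the CCAAT box, the GC-rich motif GGGCGG and the TATA motif TATAAA on either strand, so a match on the reverse strand is printed as its reverse complement. The Col1a2 window (chr6:4505368-4505667, plus strand) held 2 CCAAT and 2 GGGCGG matches, and the Col3a1 window (chr1:45311288-45311587, plus strand) held 1 TATAAA match and neither of the other motifs.
Col1a2: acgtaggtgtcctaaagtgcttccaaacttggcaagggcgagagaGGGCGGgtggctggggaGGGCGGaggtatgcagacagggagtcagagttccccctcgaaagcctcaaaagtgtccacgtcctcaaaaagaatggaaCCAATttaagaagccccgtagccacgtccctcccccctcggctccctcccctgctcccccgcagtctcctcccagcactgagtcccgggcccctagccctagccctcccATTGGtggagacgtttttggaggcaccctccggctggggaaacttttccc
Col3a1: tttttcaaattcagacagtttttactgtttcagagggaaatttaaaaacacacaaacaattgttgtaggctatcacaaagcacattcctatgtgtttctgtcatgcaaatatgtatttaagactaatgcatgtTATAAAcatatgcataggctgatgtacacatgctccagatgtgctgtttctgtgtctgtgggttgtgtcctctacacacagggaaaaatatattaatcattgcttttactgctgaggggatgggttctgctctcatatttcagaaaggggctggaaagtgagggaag
Over all 32851 RefSeq windows, CCAAT was in 37.4%, GGGCGG in 35.7% and TATAAA in 13.6%. Over the 38 collagen windows, CCAAT was in 34.2%, GGGCGG in 60.5% and TATAAA in 13.2%. These are matches of letters and not sites of binding.

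Type V collagen, which starts and thins the fibrils of type I, followed type I in place. Col5a1 had 1200 ± 129 CPM in keratocyte-like cells (pools from 972 to 1332, median 1227) and 1158 CPM in Postn/Eln cells, and the classes overlapped. Col5a2 had 1617 ± 100.5 CPM in keratocyte-like cells (pools from 1495 to 1788, median 1603), above every Postn/Eln pool, which averaged 1218 CPM. Their partner chain Col5a3 was highest in Schwann-like cells, the glia of peripheral nerves, at 409 ± 16.3 CPM over 4 pools that ran from 391.7 to 431 CPM with a median of 407 CPM. Apod/Smoc2 cells followed with 249 CPM, and their highest pool overlapped with the Schwann-like pools.

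The chains of type XI collagen, which nucleates thin fibrils in cartilage and vitreous, were highest in the Fmod/Thbs4 cluster. Col11a1 had 744 ± 138 CPM there over 5 pools (lowest 582.5, median 724, highest 964), against 377 CPM in keratocyte-like and 271 CPM in Myoc/Chil1 cells. Col11a2 had 273 ± 49.2 CPM in the Fmod/Thbs4 cluster (lowest 224, median 272, highest 349.6), and the next class, Postn/Eln cells, had 15.1 CPM. For both chains the pools of the Fmod/Thbs4 cluster lay above those of every other class. Type II collagen is the main fibril of the vitreous. Col2a1 had 192 ± 34.5 CPM in the Crhbp/Penk cluster (lowest 151, median 192, highest 233) and 173.5 ± 13.3 CPM in Müller glia-like cells, and the 2 overlapped. Col24a1, a minor fibrillar chain, had 56.8 ± 16.3 CPM in keratocyte-like cells (lowest 28.8, median 63.1, highest 74.6) and 43.4 CPM in Myoc/Chil1 cells, which overlapped. Col27a1 had 2035 UMIs in all, and its highest class, Schwann-like cells, held 94 of them.

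**Figure D2:**
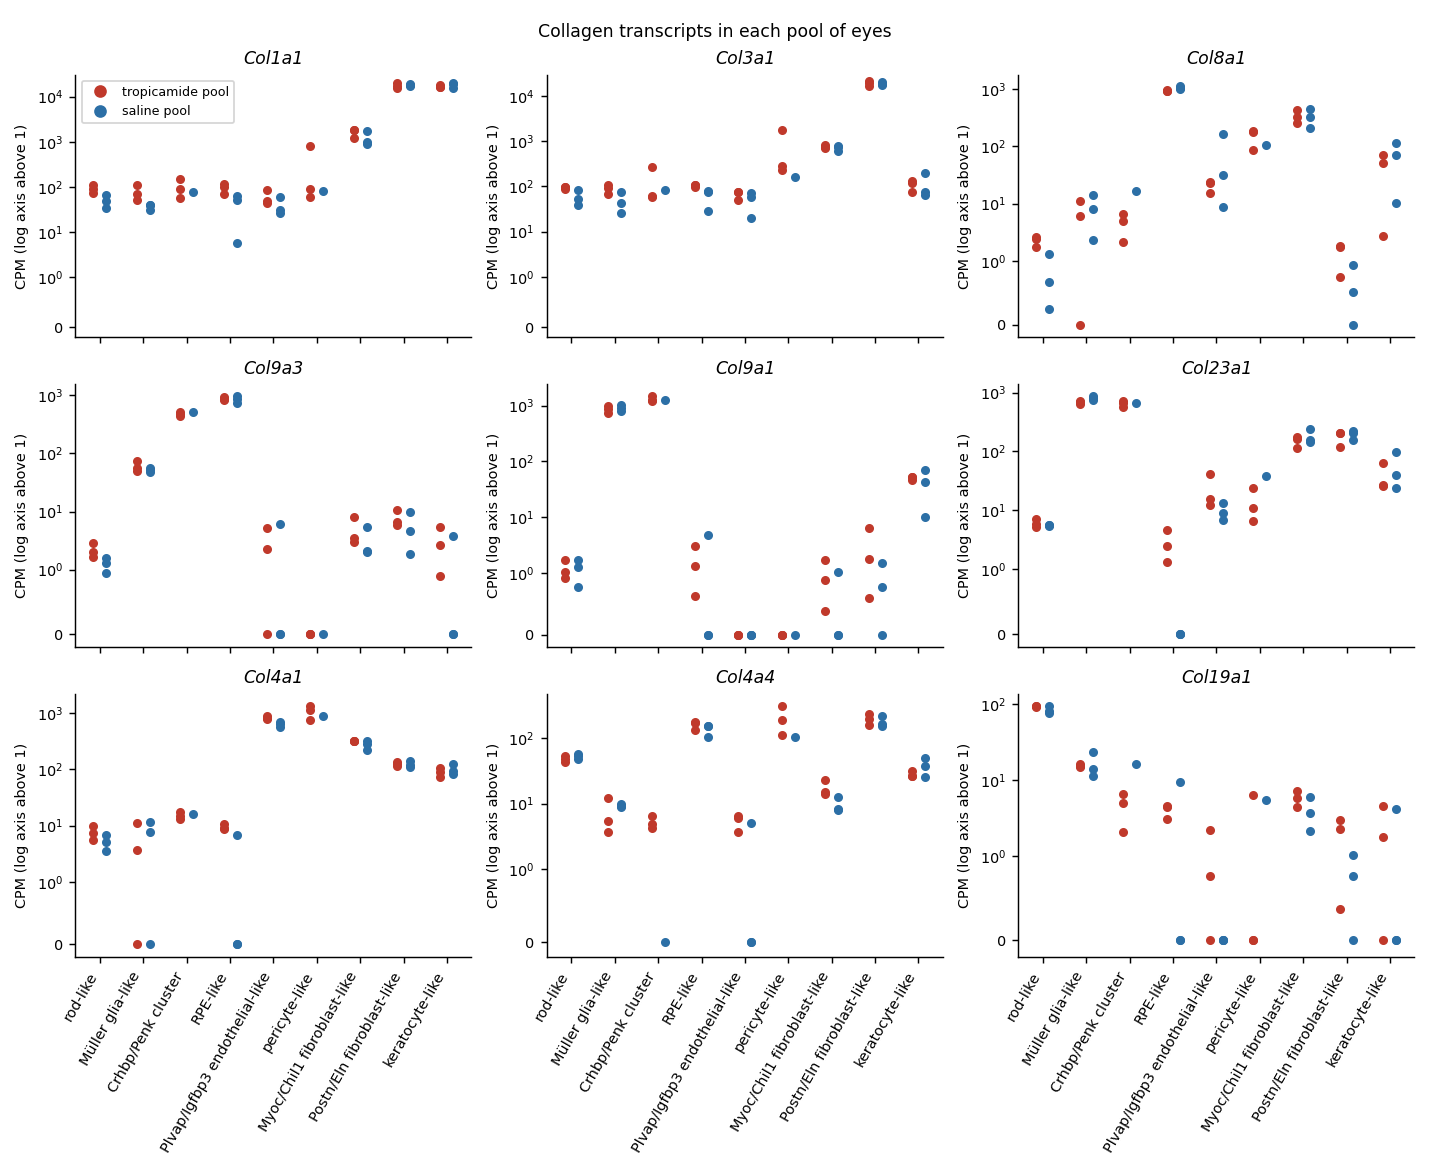
Level of 9 collagen genes (panels) in each pool of eyes (points; red tropicamide, left in each class, blue saline, right) in 9 cell classes, in CPM on an axis that is logarithmic above 1. Some classes overlap, such as Postn/Eln and keratocyte-like cells for Col1a1, while others lie far apart. Col8a1 is highest in retinal pigment epithelium-like cells, at 918 to 1101 CPM, and Col19a1 in rod-like cells, at 77.9 to 95.3 CPM.

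Type IV collagen forms the network of basement membranes from 6 chains in pairs of neighbouring genes, of which Col4a1 and Col4a2 are found in nearly all tissues. Both were highest in pericyte-like cells, which share a basement membrane with the endothelium. Col4a1 had 1024 ± 260 CPM there over 4 pools (lowest 747.8, median 1013, highest 1324), 844 CPM in Apod/Smoc2 cells, 724 CPM in Plvap/Igfbp3 endothelial-like cells and 574 CPM in Slco1a4/Abcb1a endothelial-like cells. Col4a2 had 641 ± 137 CPM in pericyte-like cells (lowest 483.5, median 652, highest 775), and 504 and 489 CPM in these 2 endothelial subsets. The pericyte-like pools overlapped with the next class for both chains. Although the mean was highest on vessels, fibroblast-like cells, which are more numerous, held 53.8% of the Col4a1 UMIs and endothelial-like cells 22.5%.

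Within the retina, rod bipolar-like cells, the interneurons that take the signal of rods, stood apart from cone bipolar-like cells. Col4a1 had 371, 264 and 310 CPM in rod bipolar-like cells of the tropicamide pools and 242, 189 and 221 CPM in those of the saline pools. In cone bipolar-like cells it had 21.8, 25.2 and 44.3 CPM after tropicamide and 37.9, 61.9 and 12.8 CPM after saline. Col4a2 had 124 ± 27 CPM in rod bipolar-like and 24.1 ± 13.1 CPM in cone bipolar-like cells (SD, n = 6 pools each). Every rod bipolar-like pool was above every cone bipolar-like pool for both chains.

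The 2 chains did not keep a fixed ratio. Col4a1 over Col4a2 had a median of 1.26 in Slco1a4/Abcb1a and 1.5 in Plvap/Igfbp3 endothelial-like cells, against 2.37 in Apod/Smoc2, 2.43 in Pi16/Tnfaip6 and 2.58 in Postn/Eln fibroblast-like cells. It was 2.22 in rod bipolar-like and 0.874 in keratocyte-like cells. Over all endothelial-like cells the pools ran from 1.19 to 1.4, and over all fibroblast-like cells from 1.96 to 2.47.

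**Figure D3:**
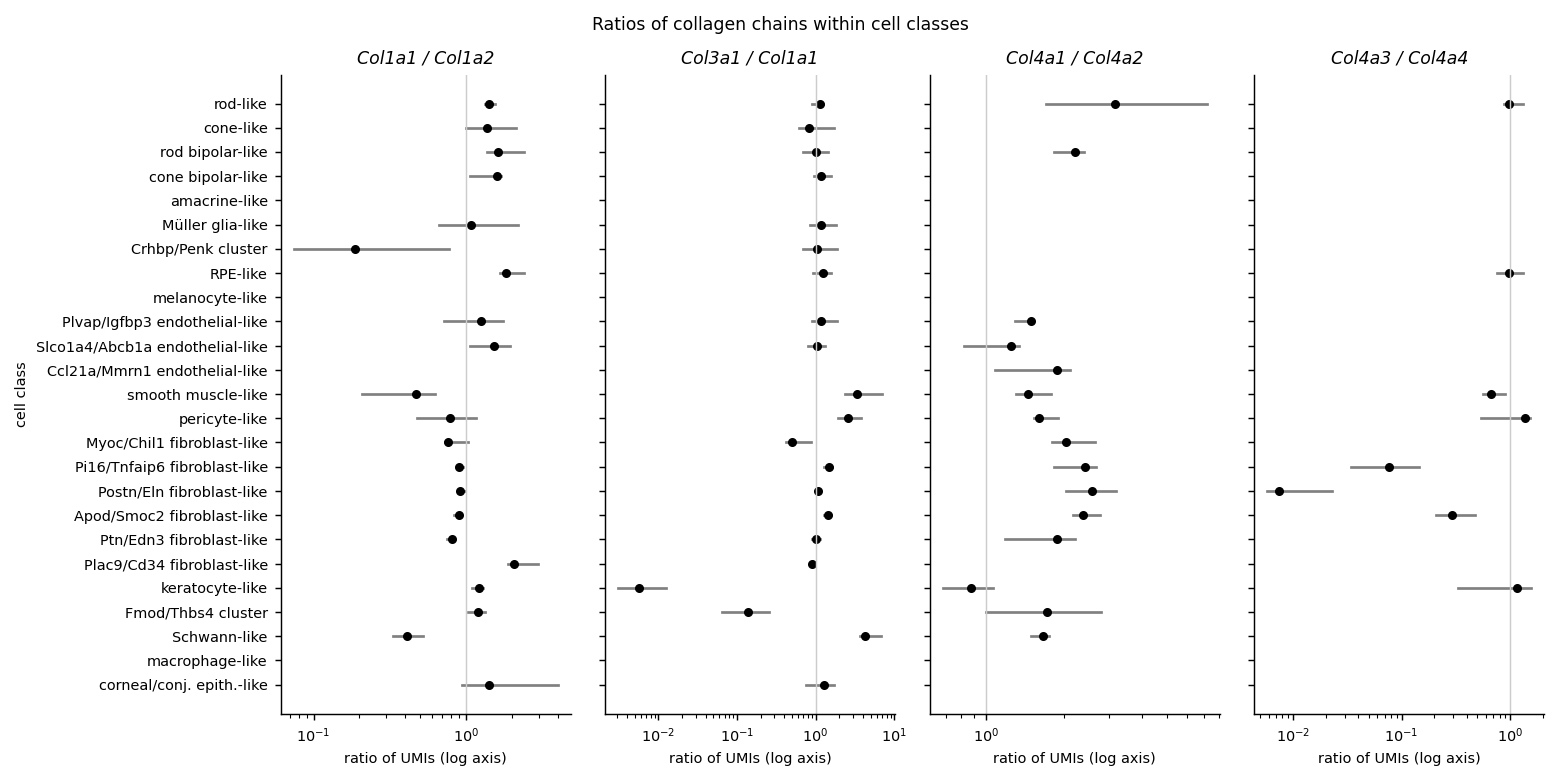
Ratio of the UMIs of 2 collagen chains within each cell class (rows) on log axes; points are medians over pools and grey lines join the lowest and highest pool, for classes with enough UMIs. Col3a1 over Col1a1 is lowest in keratocyte-like cells (0.0057), and Col4a3 over Col4a4 is lowest in Postn/Eln fibroblast-like cells (0.0074) and near 1 in rod-like cells (0.981).

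Promoter windows of Col4a1 and Col4a2 are shown because these genes lie head to head and their windows share 78 bases. The Col4a1 window is chr8:11312777-11313076 on the minus strand and the Col4a2 window chr8:11312555-11312854 on the plus strand, and capitals mark the same motifs as above. Col4a1 held 1 CCAAT and 1 GGGCGG match, and Col4a2 held 1 CCAAT and 3 GGGCGG matches. The GGGCGG match of Col4a1, near the end of its window, and the last GGGCGG match of Col4a2 are the same letters read from both strands.
Col4a1: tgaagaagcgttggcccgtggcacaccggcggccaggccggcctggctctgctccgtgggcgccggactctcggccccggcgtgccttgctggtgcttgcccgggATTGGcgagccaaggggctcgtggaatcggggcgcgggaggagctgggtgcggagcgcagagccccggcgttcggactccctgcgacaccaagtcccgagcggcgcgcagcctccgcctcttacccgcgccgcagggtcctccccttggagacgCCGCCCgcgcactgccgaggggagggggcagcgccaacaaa
Col4a2: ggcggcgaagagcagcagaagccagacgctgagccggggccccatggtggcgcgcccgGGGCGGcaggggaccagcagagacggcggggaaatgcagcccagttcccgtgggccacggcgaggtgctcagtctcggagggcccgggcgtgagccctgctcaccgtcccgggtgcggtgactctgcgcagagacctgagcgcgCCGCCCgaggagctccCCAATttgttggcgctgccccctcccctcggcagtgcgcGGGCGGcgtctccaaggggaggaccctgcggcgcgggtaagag

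Col4a3, Col4a4 and Col4a5 make the specialised network known from the kidney glomerulus. Col4a4 had its highest mean in Postn/Eln cells, 186 ± 32.7 CPM (lowest 152, median 180.2, highest 233), which overlapped with pericyte-like cells at 178 CPM. Col4a3 was nearly missing from the same cells: 19 Col4a3 UMIs stood against 2102 Col4a4 UMIs in Postn/Eln cells, and the median ratio was 0.0074. In Pi16/Tnfaip6 cells the ratio was 0.0759. In retinal pigment epithelium-like cells 605 Col4a3 UMIs stood against 702 Col4a4 UMIs, at 143.8 ± 25.5 and 147 ± 25.4 CPM, with a median ratio of 0.983. Rod-like cells, at a lower level, had 5560 against 5477 UMIs and a ratio of 0.981. Col4a3 had its highest mean in pericyte-like cells, at 243.6 ± 131.4 CPM over 4 pools (lowest 128.9, highest 419.9). These pools overlapped with those of retinal pigment epithelium-like cells. In pericyte-like cells the median ratio to Col4a4 was 1.37, with pools from 0.539 to 1.53. Col4a3 is described here although this highest class held 167 UMIs, and it was singled out after its values were seen.

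Col4a5 and Col4a6, also neighbours, were both highest in the Ptn/Edn3 fibroblast-like cells. Col4a5 had 312.5 ± 32.9 CPM there (lowest 273, median 309, highest 369.6), 253 CPM in the Crhbp/Penk cluster and 157 CPM in Müller glia-like cells. Col4a6 had 343 ± 44.6 CPM (lowest 288, median 335, highest 395), above every pool of the Crhbp/Penk cluster, whose mean was 207 CPM. Col4a5 over Col4a6 was 0.932 in Ptn/Edn3 cells and 1.15 in the Crhbp/Penk cluster. It was 5.85 in Müller glia-like cells, which had 438 and 76 UMIs, and 8.78 in Apod/Smoc2 cells, which had 1111 and 128 UMIs.

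Type VI collagen forms beaded filaments that link cells to the matrix, and its 3 main chains were highest in keratocyte-like cells. Col6a1 had 2945 ± 279 CPM (lowest 2609, median 2840, highest 3366), against 1314 CPM in Postn/Eln cells. Col6a2 had 2014 ± 149 CPM (lowest 1767, median 2043, highest 2220), against 798.6 CPM. Col6a3 had 2052 ± 193 CPM (lowest 1816, median 2026, highest 2382), against 390.6 CPM. For all 3 the keratocyte-like pools lay above those of every other class. Col6a1 and Col6a2 went closely together, with median ratios of 1.46 in keratocyte-like and 1.66 in Postn/Eln cells. Col6a1 over Col6a3 was 1.42 in keratocyte-like cells and 3.37 in Postn/Eln cells, with pools from 1.23 to 1.65 and from 2.78 to 4. Col6a6, an alternative chain, had 88.4 ± 19.4 CPM in Postn/Eln cells (lowest 60.3, median 84, highest 113), which overlapped with 64.7 CPM in Pi16/Tnfaip6 cells. Its neighbour Col6a5 had 150 UMIs in all, and Col6a4, the next gene to Col6a5, had 3. Col7a1, which forms the anchoring fibrils under epithelia, had 941 UMIs in all, 97 of them in keratocyte-like cells, its highest class.

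Type VIII collagen, which builds a hexagonal network in the basement membrane of the corneal endothelium and around vessels, was highest in the retinal pigment epithelium, the pigmented layer between photoreceptors and choroid. Col8a1 had 989.9 ± 73.3 CPM there (lowest 917.7, median 977, highest 1101), against 328 CPM in Myoc/Chil1 and 273 CPM in Apod/Smoc2 cells, and its pools lay above every other class. Col8a2 had 432 ± 39.9 CPM (lowest 359.6, median 442, highest 472), which overlapped with 311.5 CPM in keratocyte-like cells. Col8a1 over Col8a2 was 2.17 in retinal pigment epithelium-like and 2.23 in Myoc/Chil1 cells, but 0.168 in keratocyte-like cells and 16.9 in Apod/Smoc2 cells. Col10a1, a chain of the same build known from growing cartilage, had 56.9 ± 21.02 CPM in Myoc/Chil1 cells (lowest 27.4, median 55, highest 88.5). Of its 842 UMIs, 66.6% were in fibroblast-like and 13.4% in smooth muscle-like cells, whose mean was 36.2 CPM.

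The windows of Col8a1 (chr16:57754688-57754987, minus strand) and Col8a2 (chr4:126286544-126286843, plus strand) are shown because both genes were highest in retinal pigment epithelium-like cells from different chromosomes. Each held 4 GGGCGG matches, the most of any collagen window, and neither of the other motifs; in Col8a2 the last 2 overlap.
Col8a1: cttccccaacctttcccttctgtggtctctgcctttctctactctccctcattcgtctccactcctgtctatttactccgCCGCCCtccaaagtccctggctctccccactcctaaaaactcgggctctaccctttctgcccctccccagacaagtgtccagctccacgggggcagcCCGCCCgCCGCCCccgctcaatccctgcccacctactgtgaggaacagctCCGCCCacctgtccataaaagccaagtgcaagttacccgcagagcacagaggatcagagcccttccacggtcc
Col8a2: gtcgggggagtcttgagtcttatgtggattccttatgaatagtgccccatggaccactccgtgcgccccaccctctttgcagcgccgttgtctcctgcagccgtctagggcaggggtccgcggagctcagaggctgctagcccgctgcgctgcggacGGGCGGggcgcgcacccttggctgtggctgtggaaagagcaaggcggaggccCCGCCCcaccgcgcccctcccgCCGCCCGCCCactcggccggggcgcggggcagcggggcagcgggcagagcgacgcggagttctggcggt

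Type IX collagen coats type II fibrils in vitreous and cartilage and is assembled from the chains of Col9a1, Col9a2 and Col9a3. The 3 chains were found together only in part. Col9a1 had 1296 ± 113 CPM in the Crhbp/Penk cluster over 4 pools (lowest 1223, median 1249, highest 1464) and 882 ± 108 CPM in Müller glia-like cells, and the pools did not overlap. The cluster held 26, 20 and 18 cells in the tropicamide pools and 12 in saline pool 3. A single cell held 217 of 665 Col9a1 UMIs in tropicamide pool 1 and a single cell 203 of 596 in tropicamide pool 3. Col9a2 had 220.5 ± 28.8 CPM in the Crhbp/Penk cluster (lowest 193, median 222, highest 245) and 41.95 CPM in Müller glia-like cells. Col9a3 had 871 ± 81.7 CPM in retinal pigment epithelium-like cells (lowest 732, median 873, highest 965.5), 487 ± 40.4 CPM in the Crhbp/Penk cluster and 55.9 CPM in Müller glia-like cells. In retinal pigment epithelium-like cells 4027 Col9a3 UMIs stood against 6 Col9a1 UMIs and 1 Col9a2 UMI. The Crhbp/Penk cluster had all 3, with 2306, 381 and 943 UMIs, and Müller glia-like cells had 2505, 115 and 151.

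The other fibril-associated chains divided the stroma. Col12a1, which binds type I fibrils under tension, had 2103 ± 137 CPM in keratocyte-like cells (lowest 1890, median 2122, highest 2262), above every other class, and 670 CPM in the Fmod/Thbs4 cluster. Col14a1, its close relative, had 1055 ± 84.1 CPM in Pi16/Tnfaip6 cells (lowest 987, median 1031, highest 1212), which overlapped with 919.8 CPM in Postn/Eln cells. Col16a1 had 553 ± 86.9 CPM in the Fmod/Thbs4 cluster (lowest 435, median 559.8, highest 673), above 323 CPM in keratocyte-like cells. Col20a1 and Col22a1 had 3125 and 328 UMIs in all. Col20a1 had 248 ± 82.3 CPM in Schwann-like cells, with 147 UMIs, and rod-like cells held 72% of its UMIs at 20.7 CPM.

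Col19a1, which interneurons of the mouse brain secrete during synapse formation, was the only member with its highest mean in photoreceptors. Rod-like cells had 92.3, 94.4 and 95.3 CPM after tropicamide and 82.7, 95.0 and 77.9 CPM after saline, and held 9743 of its 10195 UMIs. Cone-like cells had 12 of its UMIs, and smooth muscle-like cells, the next class, had 27.8 CPM. In the RefSeq gene table Col19a1 lies next to Col9a1 with no other protein-coding gene between them, and the 2 were high in different cells. It was 1 of 8 such neighbouring pairs, which hold 15 of the 44 genes. Col1a1, Col1a2 and Col3a1, by contrast, were at 69.95, 48.6 and 76.2 CPM in rod-like cells, and at 1.45%, 1.01% and 1.72% of the level in all other kept cells (median over pools). For 34 of the 44 genes this percentage was under 10, for 4 (Col2a1, Col11a2, Col25a1 and Col28a1) it was from 10 to under 70, and for 6 it was 70 or more. The 6 were Col7a1 at 88.6%, Col4a4 at 95.8%, Col20a1 at 227%, Col4a3 at 294.5%, Col26a1 at 346% and Col19a1 at 1817%. Of these, Col26a1, with 79.5% of its 1036 UMIs in rod-like cells, and Col20a1 were also singled out after their values were seen.

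**Figure D4:**
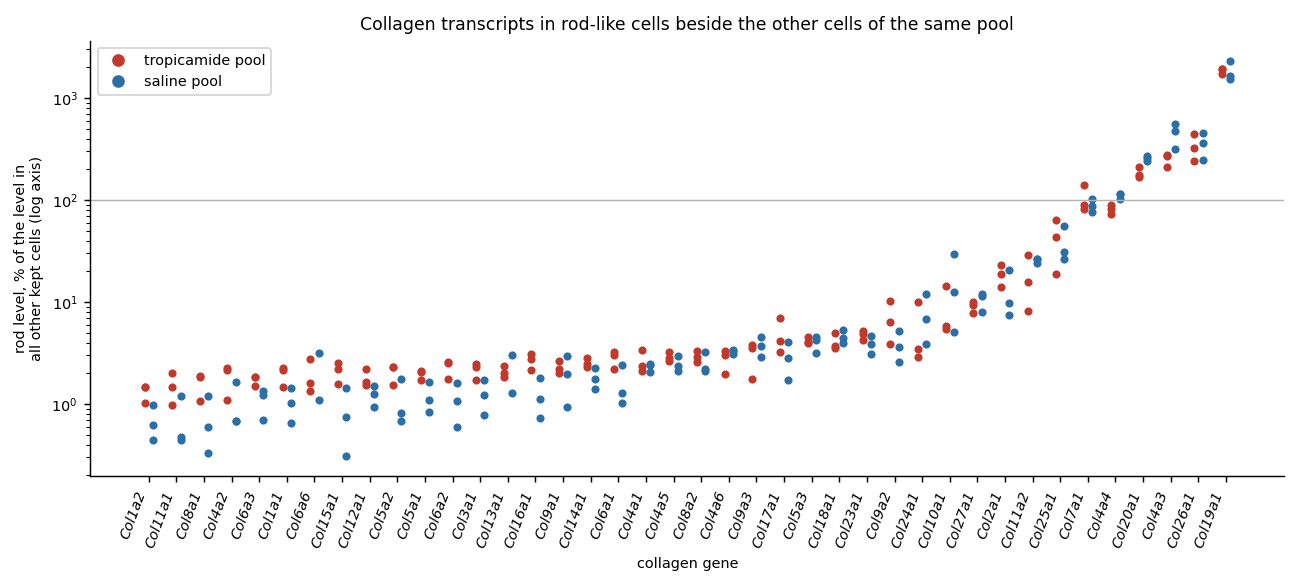
Level in rod-like cells as a percentage of the level in all other kept cells of the same pool (log axis), for collagen genes with at least 500 UMIs in all, sorted by median; red points are tropicamide pools, left, and blue points saline pools, right. Most genes lie near 1 to 5%, with saline pools often lowest, while Col20a1 (227%), Col4a3 (294.5%), Col26a1 (346%) and Col19a1 (1817%) lie above the line at 100%.

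Of the chains that sit in the cell membrane, Col17a1, which anchors epithelial cells to their basement membrane, had 688 ± 186 CPM in corneal or conjunctival epithelium-like cells (lowest 327.5, median 750.0, highest 836), which held 91.1% of its UMIs. Col23a1 had 746 ± 84.2 CPM in Müller glia-like cells (lowest 635, median 727, highest 869), which overlapped with 656 CPM in the Crhbp/Penk cluster, and Ptn/Edn3 cells had 606 CPM. Col13a1 had 127.5 ± 34.3 CPM in Plvap/Igfbp3 endothelial-like cells (lowest 72.1, median 131, highest 163), which overlapped with 118 CPM in keratocyte-like cells. Col25a1, known from amyloid plaques, had 645 UMIs in all. The multiplexins of vessel and epithelial basement membranes were Col15a1 and Col18a1. Col15a1 had 441 ± 74.5 CPM in Apod/Smoc2 cells (lowest 295.5, median 476, highest 487). In the endothelium Plvap/Igfbp3 cells had 480 Col15a1 UMIs, at 94.1 ± 36.1 CPM, and Slco1a4/Abcb1a cells had 5. Col18a1, the source of endostatin, had 827 ± 136 CPM in the Crhbp/Penk cluster (lowest 723, median 787, highest 1013), above every other class, and 493 CPM in Schwann-like cells. Col28a1, a chain known from peripheral nerve, had 208 UMIs in all, of which Schwann-like cells held 110.

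Tropicamide was compared with saline in 14 cell classes and sums of classes with at least 30 cells in every pool. For each, UMIs were summed per pool and tested with the quasi-likelihood test of edgeR over all genes that passed its filter on low counts, and a gene was called at a Benjamini-Hochberg adjusted p under 0.05. Log2 fold changes are tropicamide over saline, with their standard errors. In the sum of all stromal cells (fibroblast-like, keratocyte-like and the Fmod/Thbs4 cluster) 0 of the 41 collagen genes tested were called, where 0.0% of all 14870 genes were. At an unadjusted p under 0.05 there were 4 collagen genes, and DESeq2 called 0. In fibroblast-like cells 0 of 38 were called, where 0.0137% of all genes were, with 6 at an unadjusted p under 0.05. DESeq2 called 2 there, Col8a2 at a log2 fold change of 0.95 and Col4a6 at 0.56. The fibroblast-like sums hold the subsets in different proportions: of 840, 997 and 545 cells after tropicamide and 397, 364 and 650 after saline, Myoc/Chil1 cells were 326, 285 and 112 after tropicamide and 57, 97 and 119 after saline. Ptn/Edn3 cells were 138, 171 and 70 after tropicamide and 41, 43 and 103 after saline. How far this mix bears on the fold changes of the sums was not tested. The median log2 fold change of the collagen genes was 0.0955 in stromal and 0.0518 in fibroblast-like cells, against 0.00919 and 0.0114 over all genes tested.

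The main chains of the sclera differed little beside the spread of the pools. Col1a1 in Postn/Eln cells had 20460, 15410 and 17370 CPM after tropicamide and 17230, 17830 and 18850 CPM after saline, a log2 fold change of -0.08 ± 0.103 (adjusted p = 0.856). Col3a1 had 20890, 16690 and 19270 CPM after tropicamide and 17790, 18710 and 20460 CPM after saline, at -0.06 ± 0.101 (adjusted p = 0.892). The groups overlapped for both chains. The collagen share of stromal UMIs was 3.14%, 2.69% and 3.31% after tropicamide and 3.26%, 3.02% and 3.24% after saline, a difference of -0.126 percentage points (two-sided exact permutation p = 0.7). In fibroblast-like cells and the 5 subsets tested the difference ran from -0.139 to 0.336 points, with exact permutation p from 0.3 to 0.9 and adjusted p from 0.817 to 0.9, where the smallest p that 3 against 3 pools allow is 0.1. The sign of the difference turned to 0.0551 points in stromal cells, 0.0495 in fibroblast-like cells and 0.248 in Postn/Eln cells without tropicamide pool 2.

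In the subsets of fibroblast-like cells 0 collagen genes were called by edgeR in each: 0 of 28 in Myoc/Chil1 cells (0.13% of all genes called, 6 collagen genes at an unadjusted p under 0.05), 0 of 24 in Pi16/Tnfaip6 cells (0.0% and 5), 0 of 25 in Postn/Eln cells (0.0% and 1), 0 of 27 in Apod/Smoc2 cells (0.0% and 3) and 0 of 24 in Ptn/Edn3 cells (0.0786% and 0). DESeq2 called 1, Col8a1 in Pi16/Tnfaip6 cells. This difference was the largest among these subsets on the log2 scale. Col8a1 had 11.1, 8.35 and 3.76 CPM in Pi16/Tnfaip6 cells of the tropicamide pools and 23.5, 43.7 and 57.3 CPM in those of the saline pools, a log2 fold change of -2.54 ± 0.378 (edgeR adjusted p = 0.161). A few cells held these UMIs: the highest cell had 6 of 17, 18 of 23 and 2 of 8 after tropicamide and 21 of 43, 46 of 68 and 43 of 145 after saline. Col12a1 and Col27a1, next in Pi16/Tnfaip6 cells, were at -0.87 and -1.64 (adjusted p = 0.302 and 0.344).

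Col4a6, the basement membrane chain, had the smallest p in Myoc/Chil1 cells, with 63.3, 60.5 and 75.8 CPM after tropicamide and 36.6, 36.2 and 34.8 CPM after saline. Its groups did not overlap, and its log2 fold change was 0.83 ± 0.163 (adjusted p = 0.122). All 6 type IV chains had a fold change above 0 in Myoc/Chil1 cells, where 4990 of 9976 genes did. Over all fibroblast-like cells Col4a6 had 83.4, 60.3 and 60.7 CPM after tropicamide and 35.1, 46.7 and 48.5 CPM after saline, at 0.57 ± 0.142 (adjusted p = 0.178), in sums with the unequal mix of subsets given above. In Ptn/Edn3 cells, where its level was highest, it was at 0.1 ± 0.141 (adjusted p = 0.96), and in stromal cells it was at 0.49 (adjusted p = 0.229). Col8a2 and Col12a1 were next in Myoc/Chil1 cells, at 0.6 and 0.72 (adjusted p = 0.356 and 0.427), and in fibroblast-like cells, at 0.98 and 0.42 (adjusted p = 0.192 and 0.238). In stromal cells Col8a2 was at 0.62 and Col11a1 at 0.53 (adjusted p = 0.272 and 0.292).

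The remaining genes of smallest p by class were as follows. In Postn/Eln cells they were Col12a1 at -0.87, Col6a6 at 0.32 and Col5a3 at 0.22 (adjusted p = 0.45, 0.574 and 0.716). In Apod/Smoc2 cells they were Col5a3 at 0.76, Col4a2 at 0.45 and Col6a3 at 0.32 (adjusted p = 0.555, 0.611 and 0.654), each with tropicamide pools above all saline pools. In Ptn/Edn3 cells they were Col8a2 at 0.39, Col13a1 at -0.39 and Col4a4 at 0.74 (adjusted p = 0.738 to 0.774). Where the tested class was also the highest class of a chain, no chain was called, Col8a1 in retinal pigment epithelium-like cells included. It had 919, 959.9 and 918 CPM after tropicamide and 1101, 993 and 1048 CPM after saline, at -0.16 ± 0.082 (adjusted p = 0.738). Its groups did not overlap, and neither did those of Col23a1 in Müller glia-like cells, which had 635, 714 and 701.5 CPM after tropicamide and 869, 817 and 741 CPM after saline (-0.26 ± 0.139, adjusted p = 0.433).

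Outside the stroma, Col4a1 had the smallest p of the collagen genes in endothelial-like cells and was not called. Endothelial-like cells had 757, 708 and 731 CPM after tropicamide and 522, 526 and 595 CPM after saline, a log2 fold change of 0.4 ± 0.103 (adjusted p = 0.559). It was 0.37 in the Plvap/Igfbp3 subset and 0.36 in the Slco1a4/Abcb1a subset, which were added after the data had been seen and had under 30 cells in some pools (adjusted p = 0.795 and 0.58), and the groups overlapped in neither. The numbers of Plvap/Igfbp3 cells differed between pools, with 154, 160 and 38 after tropicamide and 24, 19 and 114 after saline. Of 14 collagen genes tested in endothelial-like cells 0 were called, where 0.0% of all genes were, with 7 at an unadjusted p under 0.05 and 0 by DESeq2. Col1a2 at 0.89 and Col4a2 at 0.28 came next (adjusted p = 0.67 and 0.749). In the added subsets 0 of 10 (0.0257% of all genes called), 0 of 5 (0.154%) and, in smooth muscle-like cells, 0 of 20 (0.0%) were called, with 2, 2 and 1 at an unadjusted p under 0.05 and 0 by DESeq2. The other genes of smallest p there were Col1a2 at 0.73 and Col8a1 at -1.11 in Plvap/Igfbp3 cells, and Col3a1 at 0.65 and Col1a1 at 0.53 in Slco1a4/Abcb1a cells. In smooth muscle-like cells they were Col6a2 at 0.67, Col6a1 at 0.67 and Col14a1 at 0.61 (adjusted p from 0.641 to 0.996 over the 7 genes).

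In rod-like cells 9 of the 37 collagen genes tested were called, all higher after tropicamide, where 5.39% of all 16305 genes were called higher and 10.1% in either direction. The rod-like sums hold their clusters in different proportions. A cluster with haemoglobin genes at its top had 1414, 2521 and 1923 cells after tropicamide and 633, 910 and 1088 after saline. Another rod cluster had 818, 849 and 1106 cells after tropicamide and 1868, 2425 and 1454 after saline. How far this mix bears on the rod calls was not tested. Col1a1 had 108.5, 91.7 and 71.9 CPM in rod-like cells of the tropicamide pools and 48.8, 33.8 and 65.1 CPM in those of the saline pools, a log2 fold change of 0.89 ± 0.193 (adjusted p = 0.018). Col1a2 had 72.8, 63.2 and 52.7 CPM after tropicamide and 31.5, 25.2 and 46.4 CPM after saline, at 0.88 ± 0.176 (adjusted p = 0.0131). Col3a1 had 98.4, 95.1 and 89.8 CPM after tropicamide and 53.5, 38.8 and 81.5 CPM after saline, at 0.72 ± 0.189 (adjusted p = 0.0358). The groups did not overlap for these 3 chains. The others were Col5a1 at 0.71, Col6a1 at 0.83, Col6a2 at 1.09, Col8a1 at 1.58, Col8a2 at 1.24 and Col16a1 at 1.32 (adjusted p from 0.0146 to 0.0463), and among them the groups overlapped only for Col6a1. Col8a1 had 2.42, 2.61 and 1.74 CPM after tropicamide and 0.237, 0.664 and 1.33 CPM after saline. The count depended on the pools: it was 1 without tropicamide pool 1, 0 without tropicamide pool 2, 9 without tropicamide pool 3, 0 without saline pool 1, 4 without saline pool 2 and 17 without saline pool 3.

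Each of the 9 called chains stood in rod-like cells at a median under 3% of its level in the other kept cells. Chains that were not called also stood under 3%, among them Col5a2 at 1.64%, Col6a3 at 1.41%, Col4a1 at 2.38%, Col4a2 at 1.36%, Col12a1 at 1.53% and Col14a1 at 2.28%. The 6 chains at 70% or more of their level in the other kept cells were not called. Col19a1 was at 0.16 ± 0.0703 (adjusted p = 0.173), Col4a3 at 0.06 ± 0.075 (adjusted p = 0.621) and Col4a4 at -0.13 ± 0.0852 (adjusted p = 0.369), and their groups overlapped. Col20a1 had 19.3, 19.5 and 17.8 CPM after tropicamide and 22.5, 23.03 and 22.03 CPM after saline, at -0.24 ± 0.0701 (adjusted p = 0.0534). Col26a1 was at 0.08 (adjusted p = 0.807), and Col7a1 at 0.24 (adjusted p = 0.344) with 4.68, 5.02 and 4.82 CPM after tropicamide and 4.2, 3.78 and 4.54 CPM after saline. The groups did not overlap for Col7a1 or Col20a1. The difference between the 9 called chains and the 6 chains at 70% or more was not tested.

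**Figure D5:**
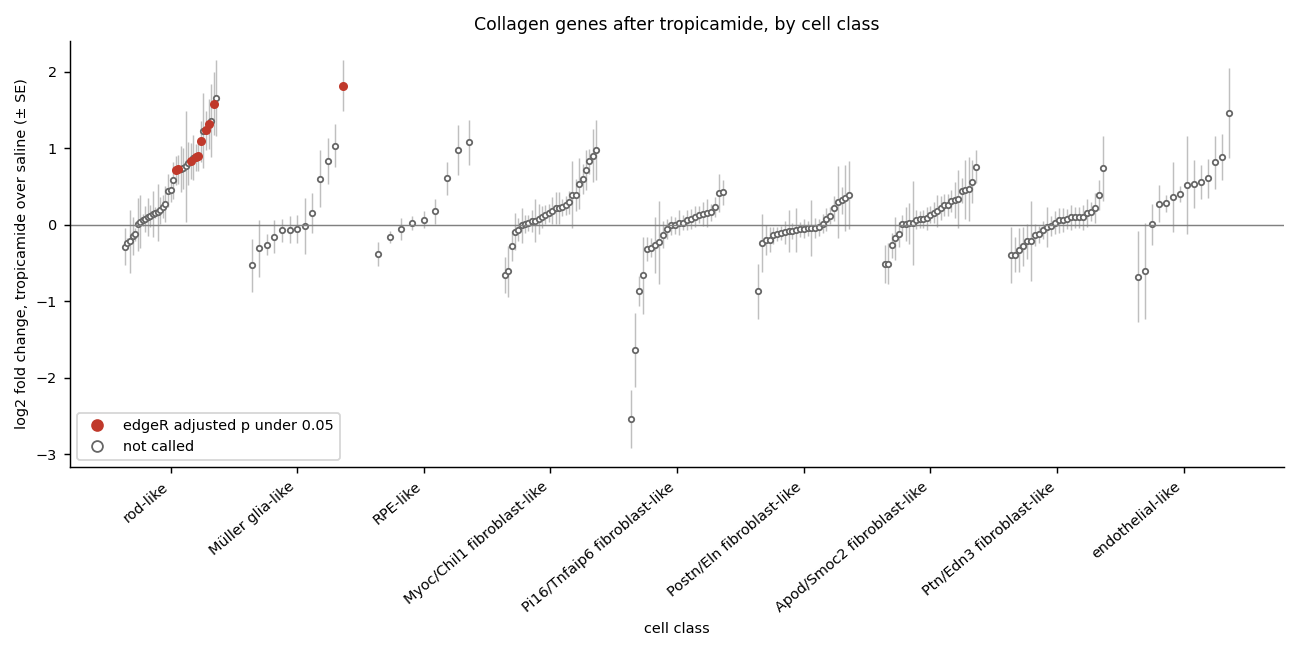
Log2 fold change, tropicamide over saline, of each collagen gene tested in 9 cell classes or sums of classes, sorted within a class; bars are standard errors from edgeR, filled red points have an adjusted p under 0.05 and open points do not. The 9 filled points in rod-like cells and the 1 in Müller glia-like cells all lie above 0, and the fibroblast-like subsets have none.

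Stromal shares and marker sums of each pool are set beside these rod values, and no relation between them was tested. Tropicamide pool 3 had a lower stromal share than saline pool 3 and a higher sum of Col1a1, Col1a2 and Col3a1 in rod-like cells. In the same 2 pools the fibroblast and endothelial marker sums in rod-like cells were lower in tropicamide pool 3, and the retinal pigment epithelium sum was higher. Stromal cells gave 32.9%, 30.3% and 22.4% of all UMIs of the tropicamide pools and 20.2%, 18.3% and 25.2% of those of the saline pools. The sum of Col1a1, Col1a2 and Col3a1 in rod-like cells was 279.6, 250.1 and 214 CPM after tropicamide and 134, 97.8 and 193 CPM after saline, which was 3.29%, 3.77% and 3.40% of the level over all cells after tropicamide and 2.41%, 2.12% and 2.83% after saline. All 12 genes of the fibroblast marker list were detected in rod-like cells of each pool, none at 0, and their summed level was 364, 405 and 263.5 CPM after tropicamide and 192, 147 and 287 CPM after saline. The 9 genes of the retinal pigment epithelium list summed to 139, 304 and 227 CPM after tropicamide and 52.9, 46.0 and 91.1 CPM after saline. The 10 genes of the endothelial list summed to 80.2, 71.2 and 47.2 CPM after tropicamide and 43.2, 36.4 and 62.0 CPM after saline. The part of free RNA or of joined cells in the rod result was not tested.

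Müller glia-like cells, the main glia of the retina, had 1 called collagen gene of 13 tested, where 1.34% of all 6926 genes were called higher and 2.24% in either direction. Col1a2 had 111, 107 and 48.0 CPM after tropicamide and 17.8, 20.9 and 37.5 CPM after saline, a log2 fold change of 1.82 ± 0.33 (adjusted p = 0.00657). The groups did not overlap. Col1a1, with 108, 71.4 and 51.7 CPM after tropicamide and 39.4, 30.2 and 40.7 CPM after saline, was at 1.03 ± 0.284 (adjusted p = 0.0588). The count was 0 without saline pool 1 and 2 without saline pool 3. Of the chains that these cells carried at a high level, Col9a1 was at -0.08 ± 0.148 (adjusted p = 0.902) and Col2a1 at -0.06 ± 0.179 (adjusted p = 0.939), with overlapping groups. Col23a1, whose values are given above, was lower after tropicamide with groups that did not overlap, and it was not called. The fibroblast marker list was at 879, 1230 and 284 CPM after tropicamide and 141, 130 and 259 CPM after saline. At least 10 of its 12 genes were detected in each pool. Dcn, a gene of this list, gave a large part of its level in tropicamide pools 1 and 2. A single cell held 173 of 207 Dcn UMIs in tropicamide pool 1 and a single cell 169 of 224 in tropicamide pool 2. The rod marker list was at 3717, 4435 and 6384 CPM after tropicamide and 2262, 2958 and 2931 CPM after saline. The 2 clusters that form the class were unequally represented, and the cluster with a median of 1021 UMIs per cell gave 12.5%, 9.36% and 17.1% of the class's UMIs after tropicamide and 3.93%, 4.18% and 4.91% after saline. In the other cluster alone, added after the data had been seen, 1 of 13 collagen genes was again called, where 0.659% of all genes were, namely Col1a2 at 1.85 ± 0.35 (adjusted p = 0.0111). The part of free RNA or of joined cells was not tested.

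Type I and III chains were not called in other classes that make little of them. In retinal pigment epithelium-like cells Col1a1 had 115.5, 101 and 69.9 CPM after tropicamide and 61.4, 5.71 and 50.5 CPM after saline, at 1.08 ± 0.294 (adjusted p = 0.25). Col1a2 and Col3a1 were at 0.98 and 0.61 there (adjusted p = 0.477 and 0.521), and 0 of 9 collagen genes were called, where 0.132% of all genes were, with 4 at an unadjusted p under 0.05 and 0 by DESeq2. Cone-like cells had Col1a2 at 0.77, Col3a1 at 0.61 and Col1a1 at 0.23 (adjusted p = 0.998 each), with 0 of 3 called where 0.0273% of all genes were, 2 at an unadjusted p under 0.05 and 0 by DESeq2. Cone bipolar-like cells had Col1a1 at 0.65, Col3a1 at 0.66 and Col23a1 at -0.52 (adjusted p = 0.988 to 0.995), with 0 of 6 called where 0.0161% of all genes were, 1 at an unadjusted p under 0.05 and 0 by DESeq2.

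With all cells summed, 0 of 43 collagen genes were called by edgeR, where 0.00498% of all 20062 genes were, and 11 had an unadjusted p under 0.05. DESeq2 called 4, namely Col8a2, Col9a3, Col18a1 and Col8a1. Col8a2 had 48.2, 46.3 and 33.2 CPM after tropicamide and 14.04, 13.9 and 19.7 CPM after saline, at 1.45 ± 0.201 (edgeR adjusted p = 0.218). Col9a3 had 28.7, 42.4 and 47.7 CPM after tropicamide and 10.4, 14.03 and 17.7 CPM after saline, at 1.53 ± 0.255, and Col18a1 was at 0.72 ± 0.145 (adjusted p = 0.218 each). The pools held 281, 694 and 570 retinal pigment epithelium-like cells after tropicamide and 90, 70 and 193 after saline. Within these cells, which held 71.5% of the Col9a3 and 33.5% of the Col8a2 UMIs, Col9a3 was at 0.02 ± 0.0956 and Col8a2 at 0.07 ± 0.105 (adjusted p = 0.983 and 0.943). In such sums more cells of a type and more RNA per cell cannot be told apart.

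The genes that modify, fold, cleave and crosslink collagen, or that bind it, were counted from 6 lists of 59 genes. In fibroblast-like cells 1 of 57 tested was called, and it was lower: Tll1, a protease that cleaves the carboxyl propeptide of procollagen. It had 35.8, 32.5 and 23.9 CPM after tropicamide and 68.5, 69.9 and 58.2 CPM after saline, at -1.16 ± 0.131 (adjusted p = 0.048), where 0.0137% of all genes were called lower. The groups did not overlap. Its adjusted p was 0.429 without tropicamide pool 2, 0.203 without saline pool 1, 0.142 without saline pool 2, 0.0561 without saline pool 3 and 0.0635 with doublets kept, and its fold change ran from -1.25 to -1.05 without any 1 pool. In the Postn/Eln cells, which had the most Tll1 of the subsets, it was at -1.01 ± 0.205 (105, 84.4 and 48.9 CPM after tropicamide and 133, 156 and 171.5 CPM after saline, adjusted p = 0.123). Pcolce2, an enhancer of that cleavage, had the second lowest p of its list in fibroblast-like cells, at -0.55 ± 0.124 (adjusted p = 0.153), and was singled out after its values were seen. Of the 8 propeptide cleavage genes tested in fibroblast-like cells 2 had a fold change above 0, and their median was -0.232, against 0.0114 over all genes. How far the unequal mix of subsets in the fibroblast-like sums, given above, bears on these values, the Tll1 call included, was not tested.

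In stromal cells 0 of 57 machinery genes were called by edgeR, with 12 at an unadjusted p under 0.05, and DESeq2 called 2, Tll1 and Pcolce2. In retinal pigment epithelium-like cells 1 of 19 was called, Pcolce, the enhancer of procollagen cleavage, with 320, 254 and 309 CPM after tropicamide and 373, 519.5 and 456 CPM after saline. It was lower at -0.61 ± 0.12 (adjusted p = 0.0108), where 0.0944% of all genes were called lower, and DESeq2 gave an adjusted p of 0.0947. Its adjusted p was 0.206 without tropicamide pool 2, 0.327 without saline pool 2 and 0.185 without saline pool 3. In rod-like cells 8 of 55 were called, beside 10.1% of all genes: P4ha2 (1.24), Serpinh1 (0.84), Ppic (0.87), Sparc (1.0), Loxl1 (0.88), Dcn (0.87) and Bgn (1.0) were higher and P4ha3 was lower (-0.97), with adjusted p from 0.00998 to 0.0391. Serpinh1 is the collagen chaperone of the endoplasmic reticulum, Sparc and Loxl1 act on secreted matrix, and Dcn and Bgn encode the proteoglycans decorin and biglycan. This count was 0 without tropicamide pool 2, 1 without tropicamide pool 1 or saline pool 1, 2 without saline pool 2 and 17 without saline pool 3. In Müller glia-like cells 1 of 28 was called, Dcn, at 3.15 ± 0.443 (adjusted p = 0.000605). It had 638.5, 615 and 66.5 CPM after tropicamide and 44.5, 44.1 and 60.3 CPM after saline, and in tropicamide pools 1 and 2 a single cell held 173 of 207 and 169 of 224 of its UMIs, while no cell of the other 4 pools held over 3.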

How the data were processed

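Per the file headers, Cell Ranger 8.0.1 made the deposited matrices, whose values are raw counts of UMIs per gene and barcode. STAR and GRCm39 are named in the submitters' processing notes. Whether intronic reads were counted, and the annotation release, are not stated there. Barcodes under 500 UMIs, under 300 genes or over 20% mitochondrial UMIs were left out. Doublets were scored against 2 simulated doublets per barcode among 50 neighbours and removed at 0.8% per 1000 barcodes. Cells of all libraries were clustered without collagen genes (2000 variable genes, 30 principal components, 20 neighbours, Leiden resolution 1, 57 clusters), and clusters were named from 30 marker lists. These names rest on score limits chosen with the clusters in view. A cluster without a cell type name entered the comparison of classes and is not reported here. Free RNA was not removed.

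UMIs were summed per class and pool and tested with edgeR 4.0.16 (quasi-likelihood, trimmed mean of M-values scaling, filterByExpr) over all genes in R 4.3.3. The alternatives were DESeq2 1.42.0, its size factors, no filter on low counts, a stricter cell filter, clustering with collagen genes, doublets kept, a replicate block and each pool left out. Collagen shares were compared by a two-sided exact permutation test. Genes named per class were the called collagen and machinery genes, the 3 collagen genes of smallest p, and chains of at least 200 UMIs in their highest class. The scripts' tests were checked on simulated counts. The members and lists were chosen with earlier results of these data known. The separate pools hold different mice, so p-values measure the spread between pools.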

Additional observations from a re-analysis of the deposited data

How the results depend on the processing

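Counts of called collagen genes in rod-like and Müller glia-like cells changed with the pool left out, as given beside them, which also leaves fewer pools to test. The low-level chains there limit what depth can show. DESeq2 (Wald test) called 4 collagen genes in all cells, 2 in fibroblast-like and 1 in Pi16/Tnfaip6 cells. Of the machinery genes it called 1 in all cells, 2 in stromal, 3 in fibroblast-like, 1 in Postn/Eln, 1 in Apod/Smoc2 and 0 in retinal pigment epithelium-like cells. Without a filter on low counts, the collagen genes called were 3 in stromal, 4 in fibroblast-like, 5 in Myoc/Chil1, 4 in Pi16/Tnfaip6, 1 in Postn/Eln, 2 in Apod/Smoc2, 14 in rod-like, 2 in Müller glia-like, 1 in retinal pigment epithelium-like and 2 in endothelial-like cells. The machinery genes were then 4 in stromal, 4 in fibroblast-like, 3 in Myoc/Chil1, 2 in Pi16/Tnfaip6, 2 in Postn/Eln, 1 in Apod/Smoc2, 1 in Ptn/Edn3, 17 in rod-like, 1 in cone bipolar-like and 3 in Müller glia-like cells. The cause was not tested.

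Equal pool numbers did not pair the pools: 0 of 42 correlations of deviations between same-numbered pools were over 0.1, and they ran from -0.494 to 0.0527. With a replicate block, 5 collagen genes were called in rod-like, 2 in Müller glia-like and 1 in retinal pigment epithelium-like cells, and 0 machinery genes in fibroblast-like, 1 in Apod/Smoc2 and 3 in rod-like cells, with an adjusted p of 0.0648 for Tll1 in fibroblast-like cells. Clustering with collagen genes gave 2 called collagen genes in Müller glia-like cells. Keeping doublets gave 3 collagen and 2 machinery genes there and 0 machinery genes in fibroblast-like cells. The DESeq2 size factors and the stricter cell filter moved no count of calls past 1.5 times. Of 21 called genes by class, 13 remained called with DESeq2, 11 with the replicate block and 19 with doublets kept, and from 2 (without tropicamide pool 2) to 18 (without saline pool 3) when a pool was left out.

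Leaving out each pool in turn, the collagen genes called ran from 0 to 1 in all cells, 0 to 2 in stromal, 0 to 1 in fibroblast-like, 0 to 1 in Pi16/Tnfaip6, 0 to 17 in rod-like, 0 to 2 in Müller glia-like and 0 to 1 in retinal pigment epithelium-like cells. The machinery genes ran from 0 to 4 in stromal, 0 to 5 in fibroblast-like, 0 to 1 in Postn/Eln, 0 to 17 in rod-like and 0 to 2 in retinal pigment epithelium-like cells. Of the 34 chains, 32 to 34 kept their highest class. Those that changed it under any alternative were Col1a1, Col4a4, Col5a1 and Col13a1. Between 22 and 24 chains had over 50% of their UMIs in fibroblast-like and keratocyte-like cells.

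The difference in collagen share ran from -0.259 to 0.0551 points in stromal, -0.314 to 0.0495 in fibroblast-like, 0.0689 to 0.195 in Myoc/Chil1, 0.167 to 0.608 in Pi16/Tnfaip6, -0.444 to 0.248 in Postn/Eln, 0.185 to 0.489 in Apod/Smoc2 and -0.0105 to 0.0631 in Ptn/Edn3 cells. Its sign turned without tropicamide pool 2 in stromal (0.0551), fibroblast-like (0.0495) and Postn/Eln cells (0.248), without saline pool 3 in Postn/Eln cells (0.0735) and without saline pool 1 in Ptn/Edn3 cells (-0.0105).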
